A study of Mus musculus with 11 samples.

Results

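Colon RNA was examined for 47 genes of carrier families that move vitamins, nucleosides, carnitine, monocarboxylates and organic ions across membranes, among 43346 genes counted. The members were taken by gene name, from the families Slc16, Slc19, Slc22, Slc23, Slc28, Slc29, Slc46, Slc47, Slc52 and Slco, without Slc16a1 and Slc16a3, and had to reach at least 10 reads in at least 5 of the 11 mice. This left 47 of 73 matching names. Of the 26 names below that minimum, 10 had no read in any mouse and the other 16 had at most 67 reads summed over all mice. Among these were the renal organic anion carriers Slc22a6 and Slc22a8, the hepatic organic anion carriers Slco1a1, Slco1a4 and Slco1b2, the concentrative nucleoside carrier Slc28a1, the thiamine carrier Slc19a3 and the proton exchanger Slc47a2.

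The study set 5 germ-free mice, raised without microbes, against 6 humanized mice. All were male Swiss Webster mice of 8 to 10 weeks, kept singly in isolators on an autoclaved diet. The humanized mice were germ-free until 4 to 5 weeks of age, received 300 μL of a human stool suspension by gavage, and were given 4 to 5 weeks for the microbiota to settle. All of them received stool of 1 donor, so the comparison describes 1 transferred microbiota, and whether the germ-free mice were gavaged with anything is not given in the sources used here. Each library held polyadenylated RNA of colon tissue of 1 mouse, with 49097005 to 64148538 counted reads in the germ-free and 39125290 to 54219854 in the humanized mice. The members took 0.101% to 0.126% of these reads.

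Solute carriers are membrane proteins that let polar molecules cross the lipid bilayer, some by simple facilitated passage and others by coupling to sodium, protons or an exchanged solute. In the colon they stand in both the luminal and the basal membrane of the epithelial cell, and others serve the muscle, vessels, nerves and immune cells of the wall. B vitamins, nucleosides, carboxylic acids and amines are found in food, are made by microbes and are made by the host, so a single carrier can meet a substrate from several sources. Many of the same carriers accept drugs.

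The 3 carnitine and ergothioneine carriers lie side by side on the minus strand of mouse chromosome 11, and the outer 2 of them had differences of opposite sign between the groups. The stretches of 250 bases just upstream of their RefSeq starts are shown for that reason, 5′ to 3′ on the gene's strand. They come from RefSeq on GRCm38.p6, chr11:53891704-53891953 for Slc22a5 and chr11:54028105-54028354 for Slc22a4, and no annotated exon lies in either. Capitals mark each match to the GC box GGGCGG, on either strand, and to the E-box CACGTG.
Slc22a5: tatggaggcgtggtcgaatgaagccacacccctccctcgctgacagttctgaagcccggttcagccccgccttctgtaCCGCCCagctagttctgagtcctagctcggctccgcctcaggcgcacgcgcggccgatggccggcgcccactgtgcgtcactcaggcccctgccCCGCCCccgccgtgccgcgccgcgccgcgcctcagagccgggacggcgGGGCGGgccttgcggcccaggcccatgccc
Slc22a4: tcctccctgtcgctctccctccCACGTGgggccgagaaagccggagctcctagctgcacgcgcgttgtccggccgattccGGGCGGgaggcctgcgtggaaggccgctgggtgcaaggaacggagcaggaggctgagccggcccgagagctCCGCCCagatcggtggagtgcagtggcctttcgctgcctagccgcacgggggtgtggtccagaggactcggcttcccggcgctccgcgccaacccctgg

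Both windows were rich in G and C, at 73.6% with 30 CpG sites for Slc22a5 and 71.2% with 26 for Slc22a4, against medians of 52.4% and 6 over all 32851 windows of the same length. The Slc22a5 window held 3 GC boxes and no E-box, and the Slc22a4 window 2 GC boxes and 1 E-box. Of all windows, 32.7% held a GC box and 6.02% an E-box. Neither window held the letters TATAAA, which 12.4% of all windows held, or the nuclear receptor half-site AGGTCA, which 14.0% held. Slc22a21 has no entry in the table of promoters, and 33 of the 47 members have one.

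Of the 47 members, 10 differed between humanized and germ-free mice at a false discovery rate (FDR) below 0.01 in the edgeR exact test, corrected over all 19863 genes tested. This was 21.3% of the members, beside 19.3% of all genes tested. Another 4 had an FDR between 0.01 and 0.05. Higher in humanized mice were 7 members (9.20% of all genes tested) and lower were 3 (10.1% of all genes tested). The share called was thus near that of all genes. In 7 members, all of them called, no value of 1 group reached into the range of the other, 5 higher in humanized mice (8.67% of all genes tested) and 2 lower (9.73%). The median difference of the members, as log2-fold change of humanized over germ-free (LFC), was −0.01, beside 0.01 over all genes tested, with 23 members above 0 and 24 below.

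Levels are given as RPKM, reads scaled to library size and to the deposited gene length, on libraries normalized with the trimmed mean of M-values (TMM). Mean levels over the 11 mice ran from 0.0206 RPKM for Slco5a1 to 46.4 for Slc22a18, with 8 members at 10 or more, 24 between 1 and 10 and 15 below 1. The median member stood at percentile 37.1 of the tested genes. Members varied more between humanized mice (median coefficient of variation 21.1%) than between germ-free mice (11%), and 43 of 47 had the larger value in humanized mice. Over all genes tested these medians were 16.5% and 10.4%, and 15932 of 19863 genes had the larger value in humanized mice.

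**Figure D1:**
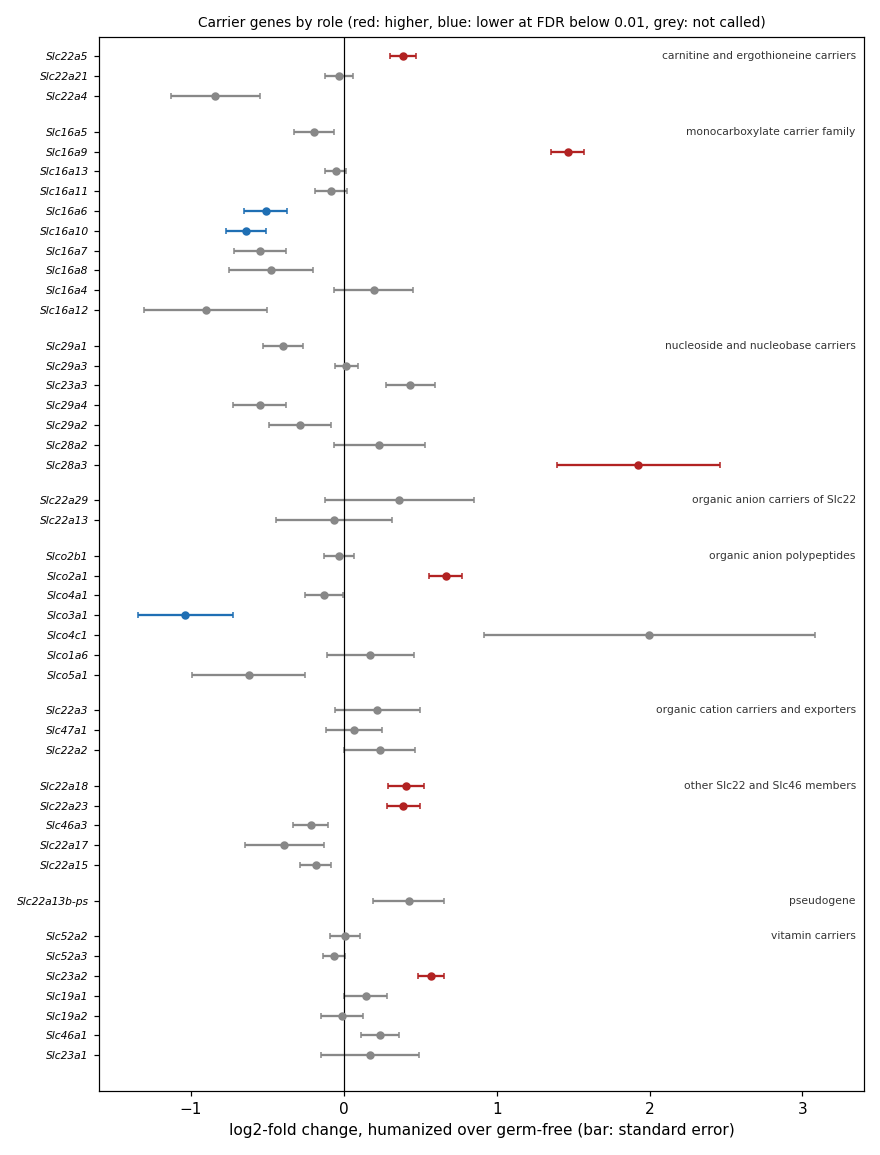
Log2-fold change of humanized over germ-free mice for 45 of the 47 carrier genes, grouped by role and ordered by level within each role; points are the edgeR estimates, bars their standard errors, red is higher and blue lower at FDR below 0.01. The 7 red points lie to the right of 0 and the 3 blue to the left, and in the monocarboxylate family 8 of the 10 points shown lie below 0.

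**Figure D2:**
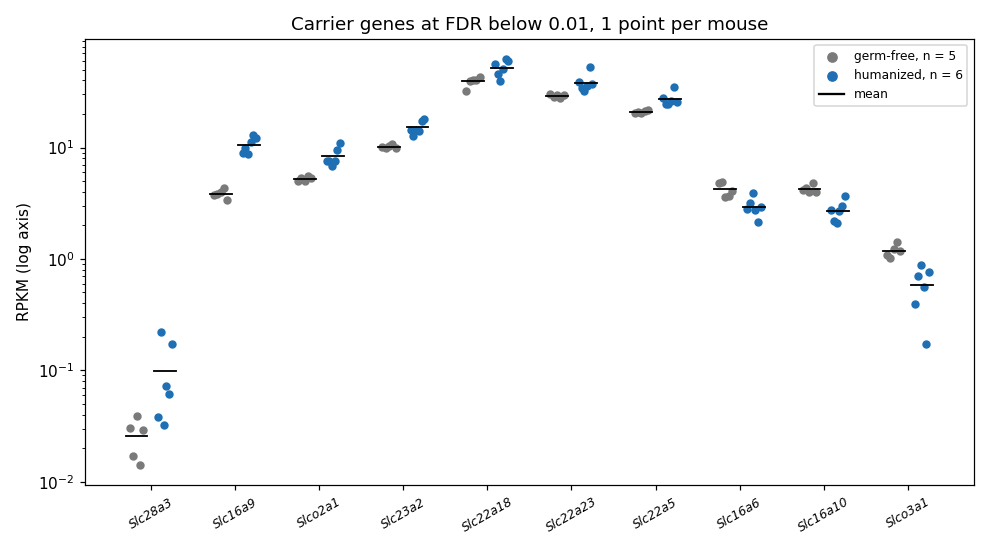
RPKM on a log axis of the 10 carriers at FDR below 0.01, ordered by log2-fold change, with 1 point per mouse (grey germ-free, n = 5; blue humanized, n = 6) and a line at each mean. Slc28a3, Slc16a6 and Slc22a18 overlap between the groups, and the other 7 do not.

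The tissue pieces differed in markers of the wall around the epithelium, and these values stand beside the members that follow. All 11 smooth muscle markers were lower in humanized mice at FDR below 0.01, with a summed level of 435 to 1247 RPKM in germ-free and 51.2 to 438 in humanized mice. Lower as well were 6 of 7 fibroblast markers (235 to 387 against 25.9 to 193 RPKM), all 6 markers of neurons and glia (7.08 to 9.82 against 0.957 to 3.07) and 3 of 4 lymphatic markers (16.8 to 26.5 against 3.95 to 15). None of 10 blood endothelial markers passed in the edgeR exact test, with sums of 45.5 to 51.9 against 5.43 to 44.2, although 7 had an unadjusted p below 0.05. DESeq2 called 2 of these 10, the quasi-likelihood test 0, and the exact test without humanized mouse 5 called 7, all lower. Of 7 macrophage markers tested, 1 was lower (121 to 155 against 36.6 to 245). The largest part of this sum was Lyz2 (71.2 and 93.5 RPKM in mean, not called), the only macrophage marker with an LFC above 0. Of 4 B and plasma cell markers tested, 2 were higher, Mzb1 (1.09 to 12.4 RPKM in mean, LFC 3.49) and Cd79a (1.15 to 3.55, LFC 1.62). The sum of this list (59.2 to 63.5 against 61.2 to 92.1) was mostly Sdc1 (59.0 and 64.8 RPKM in mean, not called). The quasi-likelihood test called fewer markers of these lists, 5 smooth muscle, 4 fibroblast, 5 neuron and glia, 1 lymphatic, 0 macrophage and 1 B and plasma cell markers. Epithelial markers were abundant in every mouse, at 4378 to 5965 and 5037 to 7079 RPKM, and 3 of 11 were higher in humanized mice. No marker list had a marker at 0 in all mice, as far as its genes were in the table. The lowest sums of the stromal and vascular lists were those of humanized mouse 5. The part of tissue composition in the differences between the groups was not tested, and in bulk tissue fewer cells of a type and less RNA per cell cannot be told apart.

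The scaling of the libraries bears on small differences, since the TMM factors were 1.03 to 1.12 in germ-free and 0.876 to 1.03 in humanized mice. With total counts in place of TMM the median LFC of all genes moved by −0.19, and with libraries scaled to the summed epithelial markers by −0.25.

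**Figure D3:**
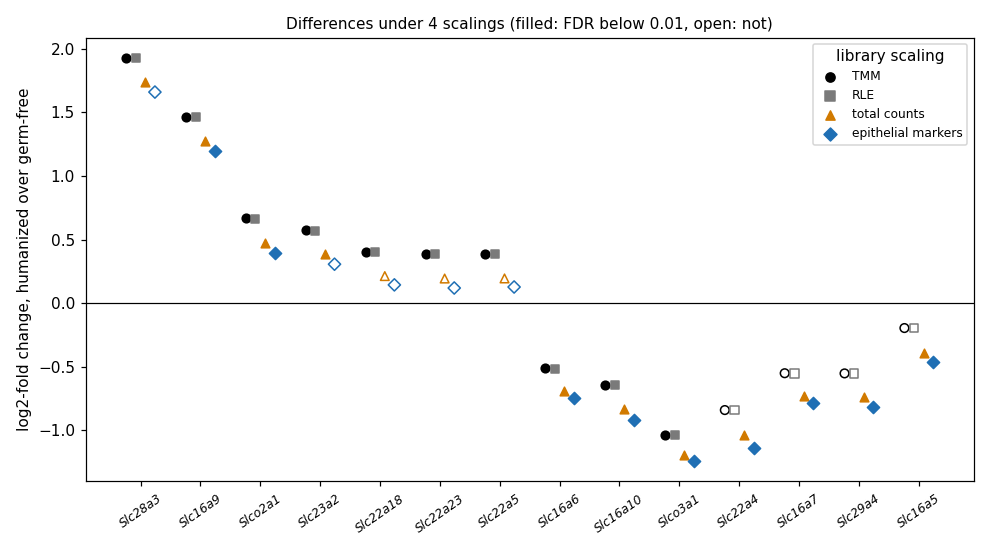
Log2-fold change of the 10 called carriers and of Slc22a4, Slc16a7, Slc29a4 and Slc16a5 under 4 scalings of the libraries; filled symbols are at FDR below 0.01. Slc16a9 and Slco2a1 stay filled above 0 under all 4, and Slc22a18, Slc22a23 and Slc22a5 are open under total counts and epithelial markers.

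Among the carnitine and ergothioneine carriers, Slc22a5 was higher in humanized mice and Slc22a4 was lower in mean without passing the threshold. Slc22a5, ENSMUSG00000018900 (chr11:53864542-53891660 on mm10), encodes OCTN2, the sodium-coupled carnitine carrier of the plasma membrane. The germ-free mice had 20.4, 20.8, 20.2, 21.2 and 21.8 RPKM, and the humanized mice 27.7, 24.7, 24.6, 26.4, 34.7 and 25.7 RPKM. Every humanized mouse stood above every germ-free mouse, and mouse 5 stood highest. The means were 20.9 ± 0.645 (SD, n = 5) and 27.3 ± 3.81 (SD, n = 6), 1.31-fold higher (LFC 0.39, standard error (SE) 0.08, FDR = 4.68e-04, edgeR exact test). Without humanized mouse 5 the LFC was 0.30 with FDR = 3.23e-05. The difference did not pass with total counts (LFC 0.19, FDR = 0.0550) or with epithelial scaling (LFC 0.13, FDR = 0.392).

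Slc22a4, ENSMUSG00000020334 (chr11:53983123-54028090), encodes OCTN1, a carrier known for ergothioneine. Its level was 7.34, 8.85, 9.28, 8.63 and 8.97 RPKM in the germ-free mice. The humanized mice had 3.45, 2.01, 3.07, 5.09, 6.79 and 8.43 RPKM, so that 4 lay well under the germ-free range, mouse 5 just under it and mouse 6 within it. The means were 8.61 ± 0.748 and 4.81 ± 2.44, with LFC −0.84 (SE 0.29) and FDR = 0.0224, which does not pass 0.01. It passed as lower without humanized mouse 5 (LFC −0.96, FDR = 0.00763), without humanized mouse 6 (LFC −1.08, FDR = 7.12e-04), with total counts (LFC −1.03, FDR = 0.00261) and with epithelial scaling (LFC −1.14, FDR = 1.56e-04).

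Between them lies Slc22a21 (chr11:53949965-53980332), which encodes the rodent carnitine carrier OCTN3. It had 8.09, 7.69, 6.84, 6.72 and 7.11 RPKM in germ-free and 6.43, 5.75, 7.29, 7.29, 8.46 and 7.52 in humanized mice, with overlapping groups (LFC −0.03, SE 0.09, FDR = 0.865). A ratio between neighbours within 1 library does not depend on the scaling. The ratio of Slc22a5 to Slc22a4, chosen after the values were seen, was 2.18 to 2.78 in germ-free mice (mean 2.44 ± 0.219) and 3.05 to 12.3 in humanized mice (mean 6.95 ± 3.24), without overlap. That of Slc22a5 to Slc22a21 was 2.88 ± 0.264 and 3.86 ± 0.432.

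**Figure D4:**
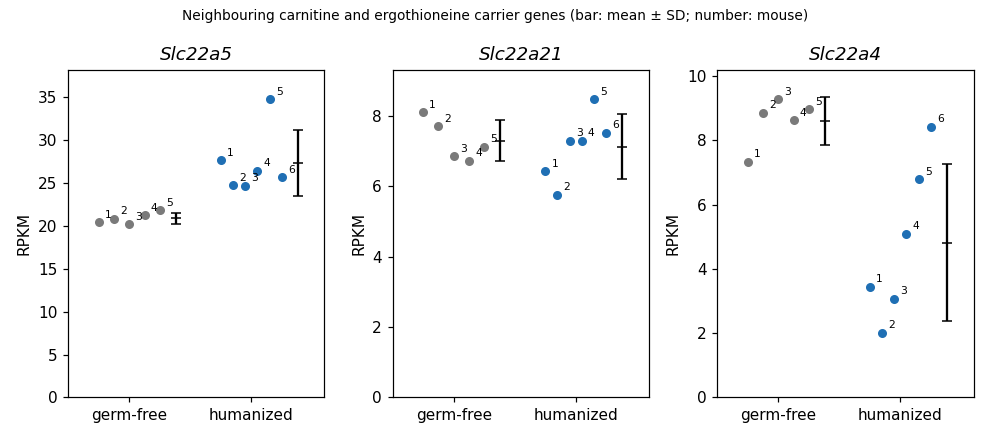
RPKM (vertical axis, from 0) of the 3 neighbouring carriers Slc22a5, Slc22a21 and Slc22a4 in each germ-free (grey, n = 5) and humanized (blue, n = 6) mouse, with mouse numbers, and mean ± SD at the side. Slc22a5 lies above the germ-free range in all 6 humanized mice, Slc22a21 overlaps, and Slc22a4 ranges from 2.01 to 8.43 RPKM among humanized mice.

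Of the 10 tested genes that make or use carnitine, 5 were higher and none was lower in the edgeR exact test, with a median LFC of 0.42. They were Slc6a14 (190 to 375 RPKM in mean, LFC 0.98, FDR = 1.92e-11), an amino acid carrier that also takes carnitine, the mitochondrial carnitine-acylcarnitine exchanger Slc25a20 (LFC 0.94, FDR = 2.26e-11), the peroxisomal acyltransferase Crot (LFC 0.74, FDR = 1.25e-09), and the mitochondrial acyltransferases Cpt2 (LFC 0.68, FDR = 4.85e-08) and Cpt1a (LFC 0.58, FDR = 1.12e-05). With epithelial scaling 4 of the 5 passed, Cpt1a being the exception (LFC 0.31, FDR = 0.0194), and with total counts all 5 passed, while 2 genes were then called lower. Cpt1c, the form known from brain, had an LFC of −0.90 with FDR = 0.0153, and was called lower by DESeq2 (FDR = 0.00836), without humanized mouse 5 (FDR = 0.00788) and with total counts (FDR = 0.00780). Bbox1, which catalyses the last step of carnitine synthesis, was near the limit of detection in both groups, at 0.0595 and 0.0576 RPKM.

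The monocarboxylate family held the member with the smallest FDR, Slc16a9, which was higher, while 9 of its 11 members had an LFC below 0 and 2 of these were called lower. Slc16a9, ENSMUSG00000037762 (chr10:70245100-70285968), encodes MCT9, which has been linked to the export of carnitine. Levels were 3.72, 3.85, 3.96, 4.30 and 3.4 RPKM in germ-free mice against 8.95, 9.87, 8.71, 11.1, 12.9 and 12.1 in humanized mice. The lowest humanized mouse stood above the highest germ-free mouse by more than the whole germ-free range. The means of 3.85 ± 0.330 and 10.6 ± 1.70 differed 2.76-fold (LFC 1.46, SE 0.11, FDR = 6.75e-29). The difference passed under each scaling, with LFC 1.19 at the lowest under epithelial scaling. Of its exon bases, 23.5% overlap exons of the antisense genes Gm7097 and Gm9877, which were higher as well (LFC 1.49 and 1.68). Reads from the 2 strands cannot be told apart in these libraries.

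Slc16a10, ENSMUSG00000019838 (chr10:40033535-40142254), encodes TAT1, which lets aromatic amino acids leave the epithelial cell at its basal side. Its values were 4.15, 4.32, 3.97, 4.80 and 3.97 RPKM without and 2.75, 2.19, 2.08, 2.67, 2.98 and 3.64 RPKM with microbiota, and the groups did not overlap. It was 1.56-fold lower in humanized mice (4.24 ± 0.346 to 2.72 ± 0.566, LFC −0.64, SE 0.13, FDR = 1.41e-04). Within each library the ratio of Slc16a9 to Slc16a10 was 0.907 ± 0.0531 in germ-free and 3.96 ± 0.532 in humanized mice, a ratio chosen after the values were seen. Slc16a10 remained called without each of the 11 mice in turn and under both other scalings.

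Slc16a6, ENSMUSG00000041920 (chr11:109450855-109473598), encodes MCT7, known for the release of ketone bodies. Germ-free mice had 4.82, 4.88, 3.63, 3.64 and 4.07 RPKM. Humanized mice had 2.78, 3.18, 3.87, 2.77, 2.13 and 2.95 RPKM, with mouse 3 inside the germ-free range. The decrease to 2.95 ± 0.570 from 4.21 ± 0.612 RPKM passed (LFC −0.51, SE 0.14, FDR = 0.00548), but in 6 of 11 fits that left out a mouse it did not. The quasi-likelihood test did not call Slc16a6 (FDR = 0.0162). Exons of Amz2 and Arsg, on the other strand, and of Gm25540, on the same strand, together cover 23.5% of its exon bases, and Arsg was lower as well (LFC −0.49, FDR = 0.00267) while Amz2 had an LFC of −0.01. Gm25540 held 19 reads over the germ-free and 15 over the humanized mice and was not tested.

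Slc16a5, ENSMUSG00000045775 (chr11:115462474-115474398), which encodes MCT6, was the most abundant of these carriers. It had 26.9, 31.2, 33.3, 34.2 and 34.9 RPKM in germ-free and 26.1, 23, 22.5, 27.5, 39.3 and 29.9 in humanized mice. The groups overlapped and the difference did not pass (LFC −0.20, SE 0.13, FDR = 0.315), though without humanized mouse 5, the highest, it did (LFC −0.32, FDR = 0.00848). With total counts (LFC −0.39) and epithelial scaling (LFC −0.46) it passed as lower. Slc16a7, which encodes the pyruvate and lactate carrier MCT2, was just short of the threshold (3.29 ± 0.404 to 2.25 ± 0.587 RPKM, LFC −0.55, FDR = 0.0167). It passed as lower under both other scalings, with DESeq2 (FDR = 0.00717) and without humanized mouse 2 (LFC −0.68, FDR = 9.40e-04). The other 5 members, Slc16a4, Slc16a8, Slc16a11, Slc16a12 and Slc16a13, had LFC from −0.90 to 0.19 and FDR from 0.0882 to 0.751.

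Some monocarboxylate carriers need a partner glycoprotein to reach the membrane, and Bsg, which encodes the partner basigin, was higher (284 to 392 RPKM, LFC 0.47, FDR = 1.41e-05), but not with epithelial scaling (LFC 0.21, FDR = 0.100). In the exact test on the TMM scale 1 of 7 chaperones and scaffolds passed, which was Bsg. The scaffold gene Slc9a3r2 (LFC −0.42, FDR = 0.0170) passed as lower with total counts (FDR = 0.00205), with epithelial scaling (FDR = 0.00786) and without humanized mouse 5 (FDR = 0.00744), and Slc9a3r1 with epithelial scaling (FDR = 0.00249). Emb, which encodes embigin, the partner of MCT2, had 1.56 and 1.87 RPKM (FDR = 0.528). Of 7 thyroid hormone genes, Dio1, which encodes a deiodinase that forms active thyroid hormone, was higher (19.5 to 50.3 RPKM, LFC 1.37, FDR = 3.67e-19), and Dio2, which encodes another, was lower at very low levels (0.117 to 0.0311 RPKM, LFC −1.88, FDR = 9.53e-05).

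Vitamin carriers showed 1 difference, in Slc23a2, out of 7. Slc23a2, ENSMUSG00000027340 (chr2:132052496-132145108), encodes SVCT2, the sodium-coupled ascorbate carrier found in most tissues. Mice make ascorbate themselves, in the liver. Levels of 10.2, 9.84, 10.3, 10.7 and 9.96 RPKM in germ-free mice stood against 14.4, 12.8, 14.3, 14.1, 17.1 and 18.2 in humanized mice. All 6 humanized mice were above all 5 germ-free mice. The 1.49-fold difference (10.2 ± 0.329 to 15.1 ± 2.06, LFC 0.57, SE 0.09, FDR = 1.17e-07) passed without each mouse in turn and with total counts (LFC 0.38), but not with epithelial scaling (LFC 0.31, FDR = 0.0254). Slc23a1, the epithelial ascorbate carrier SVCT1, was at 0.193 ± 0.0773 and 0.216 ± 0.0804 RPKM (FDR = 0.780).

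Slc52a2, ENSMUSG00000022560 (chr15:76538943-76542130), encodes RFVT2, a riboflavin carrier, and had the highest mean level of the vitamin carriers over the 11 mice, though Slc23a2 had the higher mean among humanized mice. It had 13.7, 14.4, 14.4, 15 and 14.6 RPKM in germ-free and 14.5, 11.1, 12.9, 14.3, 16.9 and 17.1 in humanized mice. The humanized range enclosed the germ-free range (LFC 0.01, SE 0.10, FDR = 0.984). The other riboflavin carrier, Slc52a3, was close in level (13.4 ± 0.769 and 12.8 ± 1.32 RPKM, LFC −0.07, FDR = 0.641). The reduced folate carrier Slc19a1 (LFC 0.14), the thiamine carrier Slc19a2 (LFC −0.01) and the proton-coupled folate carrier Slc46a1 (LFC 0.24) had means between 1.48 and 3.65 RPKM and FDR from 0.293 to 0.965.

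Enzymes and other proteins that handle these vitamins were counted as a list of their own. Of 25 tested genes for thiamine, riboflavin, biotin, pantothenate, B6 and B12, 8 were higher and 1 was lower, with a median LFC of 0.10. Vnn1, which encodes the pantetheinase that frees pantothenate, differed most (0.682 to 9.51 RPKM, LFC 3.80, FDR = 1.35e-38). Slc44a4, the colonic carrier of thiamine pyrophosphate, was higher (128 to 195 RPKM, LFC 0.61, FDR = 1.37e-06). Pdxk, the kinase of vitamin B6, was lower (LFC −0.47, FDR = 2.90e-05). With total counts, 3 genes were called higher and 1, Pdxk, lower. Epithelial scaling also gave 3 higher, but 3 lower, Pdxk, Rfk and Pank1. Vnn1 and Slc44a4 were among the higher genes under both. The quasi-likelihood test called 6 higher and 1 lower. Of 21 folate genes, Ggh, which encodes the hydrolase that trims folate polyglutamates, was higher (14.8 to 23.8 RPKM, LFC 0.69, FDR = 5.63e-07), and Fpgs, which encodes the synthase that makes them, was lower (5.87 to 3.98 RPKM, LFC −0.56, FDR = 1.52e-04).

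Nucleoside carriers were low to moderate in level, and the 1 call among 7 was at the margin of detection. Slc29a1, ENSMUSG00000023942 (chr17:45585200-45599606), encodes ENT1, the main equilibrative nucleoside carrier. It had 7.60, 6.92, 6.84, 8.69 and 7.74 RPKM in germ-free and 5.61, 5.70, 7.51, 6.30, 3.96 and 5.39 in humanized mice. Of the 6 humanized mice, 5 lay below the germ-free range, and the difference was short of the threshold (LFC −0.40, SE 0.13, FDR = 0.0229). It passed as lower without humanized mouse 3 (LFC −0.49, FDR = 0.00120) and with total counts (LFC −0.57, FDR = 0.00489) but not with epithelial scaling (LFC −0.62, FDR = 0.0155).

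Slc29a4, which encodes the monoamine and adenosine carrier PMAT, was likewise short (1.85 ± 0.296 to 1.26 ± 0.296 RPKM, LFC −0.55, FDR = 0.0282) and passed as lower under both other scalings and without humanized mouse 4 (FDR = 0.00621). Slc28a3, which encodes the concentrative carrier CNT3, was called higher (LFC 1.93, SE 0.53, FDR = 0.00281) on 7 to 18 reads per germ-free and 11 to 68 per humanized library. The humanized mice 2 and 6, at 0.222 and 0.172 RPKM, carried this difference, the other 4 lying at 0.0321 to 0.0718, and it passed in 5 of 11 fits without 1 mouse. It passed with total counts (LFC 1.74, FDR = 0.00710) but not with epithelial scaling (LFC 1.66, FDR = 0.0123) or in the quasi-likelihood test (FDR = 0.0182). Slc23a3 (LFC 0.44), Slc28a2 (LFC 0.23), Slc29a2 (LFC −0.29) and the lysosomal Slc29a3 (LFC 0.01) did not pass, with FDR from 0.0725 to 0.939.

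Of 28 genes of nucleoside salvage, breakdown and adenosine sensing, 3 were higher and 4 lower. Higher were Cda, cytidine deaminase (15 to 25.3 RPKM, LFC 0.75, FDR = 0.00113), and Gda, guanine deaminase (11.6 to 19.3 RPKM, LFC 0.74, FDR = 3.50e-05). Lower were Entpd3, an ectonucleotidase (0.265 to 0.110 RPKM, LFC −1.27, FDR = 0.00393), and Nt5e, which encodes CD73, the enzyme that forms adenosine outside cells (1.02 to 0.509 RPKM, LFC −1.0, FDR = 0.00837). Aprt was the third higher gene, and Adora1 and Tymp the other lower ones. Cda did not pass with total counts (FDR = 0.0109), and neither Cda (FDR = 0.0207) nor Aprt (FDR = 0.0206) passed with epithelial scaling. Nt5e did not pass without humanized mouse 5 (FDR = 0.0178). The quasi-likelihood test called 4 of the 28, with Nt5e (FDR = 0.0259), Entpd3 (FDR = 0.0184) and Cda (FDR = 0.0106) not passing.

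Organic anion polypeptides had 1 higher and 1 lower member of 7. Slco2a1, ENSMUSG00000032548 (chr9:102988712-103096002), encodes PGT, which takes up prostaglandins before their breakdown. Germ-free mice had 5.03, 5.34, 5.01, 5.50 and 5.32 RPKM, within a narrow range. Humanized mice had 7.57, 7.52, 6.82, 7.58, 9.49 and 10.9 RPKM, all of them above it. The difference from 5.24 ± 0.214 to 8.31 ± 1.55 RPKM was 1.59-fold (LFC 0.67, SE 0.11, FDR = 5.58e-07) and passed under both other scalings, at LFC 0.47 and 0.40, and without each mouse in turn.

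Slco3a1, ENSMUSG00000025790 (chr7:74275419-74554780), encodes OATP3A1, a widely expressed anion carrier. It had 1.09, 1.02, 1.22, 1.43 and 1.18 RPKM in germ-free and 0.395, 0.699, 0.879, 0.564, 0.171 and 0.761 in humanized mice, without overlap. It was 2.05-fold lower (1.19 ± 0.158 to 0.578 ± 0.260, LFC −1.04, SE 0.31, FDR = 0.00745) and passed in 3 of 11 fits without 1 mouse, among them that without humanized mouse 5, its lowest (LFC −0.84, FDR = 3.37e-04). In the quasi-likelihood test Slco3a1 did not pass (FDR = 0.0256). Humanized mouse 5, the lowest here, also had the lowest sums of the stromal and vascular markers, and their part in this difference was not tested.

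Slco2b1, ENSMUSG00000030737 (chr7:99657804-99711340), encodes OATP2B1, a carrier of steroid sulfates and many drugs. It had the highest mean of the family over the 11 mice, though the mean of Slco2a1 was higher in humanized mice. Its values were 6.58, 6.63, 8.24, 8.45 and 8.44 RPKM in germ-free and 6.34, 7.04, 7.09, 7.42, 8.20 and 8.80 in humanized mice. The groups overlapped throughout (LFC −0.03, SE 0.10, FDR = 0.859). Slco4c1 had 0.0285 to 0.129 RPKM in 10 mice and 1.75 in humanized mouse 5, which alone held 409 reads against at most 40 in any other. Its LFC of 2.0 (FDR = 0.145) turned to −0.81 (FDR = 0.132) without that mouse. Slco4a1 (LFC −0.13), Slco1a6 (LFC 0.17) and Slco5a1 (LFC −0.62) did not pass.

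Genes of prostaglandin synthesis, sensing and breakdown gave 5 lower and none higher of 19 tested, with a median LFC of −0.43. Ptgis, prostacyclin synthase (1.32 to 0.394 RPKM, LFC −1.74, FDR = 6.25e-05), and Ptgir, the prostacyclin receptor (0.724 to 0.233 RPKM, LFC −1.63, FDR = 3.00e-04), are known from vessels and smooth muscle. Ptger3, an E prostanoid receptor (LFC −0.74, FDR = 0.00513), and Hpgds, a prostaglandin D synthase (LFC −0.73, FDR = 3.81e-04), were lower too, and Ptger4 was the fifth. Ptger3 did not pass in the quasi-likelihood test (FDR = 0.0152), by which 4 of the list were lower. Without humanized mouse 5 the list gave 8 lower and 1 higher of 18 tested. Hpgd, which encodes the dehydrogenase that inactivates prostaglandins, was abundant in both groups (361 and 282 RPKM, LFC −0.36, FDR = 0.0938). It passed as lower without humanized mouse 5 (LFC −0.52, FDR = 2.35e-05), with total counts (LFC −0.56, FDR = 0.00138) and with epithelial scaling (LFC −0.63, FDR = 2.48e-04). The summed smooth muscle markers given above were 435 RPKM or more in each germ-free mouse and below that in 5 of 6 humanized mice. The part of tissue composition in the differences of this list was not tested.

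No organic cation carrier or exporter passed among 4 (edgeR exact test), and none had an unadjusted p below 0.05 or was called by the quasi-likelihood test or DESeq2. Slc22a3, Slc47a1 and Slc22a2 had mean levels from 0.230 to 1.37 RPKM and LFC from 0.06 to 0.23.

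None of the 5 enzymes of monoamine breakdown passed in the edgeR exact test on the TMM scale, 2 of them with an unadjusted p below 0.05 and none called by the quasi-likelihood test or DESeq2. Maoa, monoamine oxidase A, had 244 and 316 RPKM (LFC 0.38, FDR = 0.0235) and Aoc1, diamine oxidase, 105 and 75.1 (LFC −0.49, FDR = 0.104). Aoc1 passed as lower with total counts (LFC −0.69, FDR = 0.00933) and with epithelial scaling (LFC −0.79, FDR = 5.97e-04).

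Among the organic anion carriers of Slc22 and the remaining Slc22 and Slc46 genes, Slc22a18 and Slc22a23 were higher in humanized mice in the edgeR exact test on the TMM scale. Slc22a18, ENSMUSG00000000154 (chr7:143473721-143499334), an imprinted gene whose substrate is not settled, had 32.4, 39.9, 40.6, 40.7 and 43.4 RPKM in germ-free mice. The humanized mice had 55.7, 45.4, 39.5, 51.1, 62.1 and 59.3 RPKM, with mouse 3 inside the germ-free range. It was 1.33-fold higher (39.4 ± 4.14 to 52.2 ± 8.61, LFC 0.41, SE 0.11, FDR = 0.00583) and passed in 3 of 11 fits without 1 mouse. It did not pass with total counts (LFC 0.21, FDR = 0.0972), epithelial scaling (LFC 0.14, FDR = 0.203) or in the quasi-likelihood test (FDR = 0.0200).

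Slc22a23, ENSMUSG00000038267 (chr13:34179158-34345182), an orphan member, had 30.3, 28.5, 29.9, 27.9 and 29.7 RPKM in germ-free mice and 38.4, 34.1, 32.2, 35.8, 52.5 and 37.1 in humanized mice. The groups did not overlap, and humanized mouse 5 stood far above the others. The 1.31-fold difference (29.2 ± 1.01 to 38.3 ± 7.29, LFC 0.39, SE 0.11, FDR = 0.00520) passed in 5 of 11 fits without 1 mouse, with FDR from 0.00101, without humanized mouse 5 (LFC 0.28), to 0.0239. It did not pass with total counts (LFC 0.19, FDR = 0.116), with epithelial scaling (LFC 0.12, FDR = 0.458) or in the quasi-likelihood test (FDR = 0.0189).

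Slc46a3, a lysosomal carrier, had 10.8 ± 1.06 and 9.26 ± 1.54 RPKM (LFC −0.22, FDR = 0.212). It passed as lower with total counts (LFC −0.41, FDR = 0.00543) but not with epithelial scaling (LFC −0.48, FDR = 0.0252). Slc22a17, the lipocalin receptor, had 2.43 ± 0.326 and 1.86 ± 0.780 (LFC −0.39, FDR = 0.318). Slc22a15 (LFC −0.19) and the pseudogene Slc22a13b-ps (LFC 0.42) did not pass either. Neither of the 2 Slc22 organic anion carriers above the read minimum passed, none having an unadjusted p below 0.05 and neither being called by the other tests. Slc22a29, the higher of them, had 0.175, 0.303, 0.0753, 0.219 and 0.120 RPKM in germ-free and 0.168, 0.521, 0.204, 0.238, 0.0463 and 0.202 in humanized mice, or 5 to 44 reads per library. At this depth its LFC of 0.36 with an SE of 0.49 shows no difference that could be detected. Slc22a13 had 4 to 20 reads per library (LFC −0.07, SE 0.38).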

How the data were processed

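RNA was sequenced from the colon of 5 germ-free and 6 humanized mice. Per the labels and the methods of the study, the TruSeq RNA Library Prep Kit v2, which does not mark strand, and 101 bp paired-end reads were used. The submitters' processing notes name bcl2fastq 2.17.1.14, TopHat2 2.1.0, Bowtie2 2.2.3, featureCounts of Subread 1.4.6-p5 and build mm10. The authors deposited whole-number counts per gene, not normalized, with gene positions and lengths. How reads in overlapping genes were counted is not given in the sources used here.

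The main test ran edgeR 4.0.16 under R 4.3.3: filterByExpr (minimum count 10, total 15, large group 10, proportion 0.7), TMM, estimateDisp and exactTest, with Benjamini-Hochberg correction over 19863 genes at FDR below 0.01. Standard errors come from glmQLFit. RPKM values were computed from the deposited lengths. DESeq2 1.42.0, edgeR's quasi-likelihood test, other scalings and filters, and leaving out each mouse were alternatives. The scripts were tested on simulated data. With 5 mice against 6, the smallest p of an exact permutation test is 0.00216. No 2 libraries were alike within sampling noise, with a mean chi-square per gene of 19.8 to 122 between mice of a group. Exon overlaps come from GENCODE M21 on GRCm38, which need not be the annotation used for counting.

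Members, roles, partner lists and markers were chosen with earlier results of these data known. Values per mouse are given for members at FDR below 0.01 with a mean of at least 1 RPKM in a group and for the most abundant member of each role, except for items not reported here, and also for Slc22a4, Slc22a21 and Slc28a3, in part or whole, after their values were seen. In each partner list up to 4 called genes were named by size of the difference. Beyond that, Cpt1a, Cpt1c, Bbox1, Rfk, Pank1, Slc9a3r1, Slc9a3r2, Emb, Aprt, Adora1, Tymp, Ptger4, Hpgd, Maoa and Aoc1 were named after their values were seen. The markers Lyz2, Mzb1, Cd79a and Sdc1 were likewise named after their values were seen.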

Additional observations from a re-analysis of the deposited data

Results flagged for a closer look

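Of 90 groups of mice, 1 for each of 45 members and each condition, 6 held a mouse far from the rest by Dixon's gap ratio at the 95% level, where chance flags about 1 in 20. Humanized mouse 5 was set apart in 3 of them, with Slco4c1 at 1.75 RPKM (next 0.0774), Slc22a5 at 34.7 (next 27.7) and Slc22a23 at 52.5 (next 38.4), and it had the lowest summed smooth muscle (51.2 RPKM) and fibroblast (25.9 RPKM) markers of all mice. The part of tissue composition in these values was not tested. Germ-free mouse 1 was low in Slc29a2 (0.815 RPKM, next 1.22). Germ-free mouse 2 was high in Slco4a1 (2.48, next 2.0) and low in Slc22a17 (1.86, next 2.53).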

How the results depend on the processing

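No called direction turned under any alternative run. Of 10 members called, the quasi-likelihood test gave 5, 4 higher and 1 lower, while 2699 of all genes were called in place of 3826. DESeq2 gave 11, 7 higher and 4 lower, beside 2185 higher and 2182 lower of all genes. Total counts gave 4 higher and 9 lower, and scaling to epithelial markers 2 higher and 7 lower. Over all genes the split of higher to lower was 1827 to 1999 with TMM, 773 to 3609 with total counts and 496 to 2877 with epithelial markers. At FDR below 0.05, 7 members were lower, beside 2905 of all genes tested. Leaving out 1 mouse gave 5 to 11 members called, 4 to 7 higher, 1 to 5 lower and 7 to 12 without overlap. Of all genes tested, 14.4% to 22.4% were called in these fits. Without humanized mouse 3, 12 members did not overlap. The share of all genes without overlap was not counted in these fits. Without germ-free mouse 1 or 2, 5 members were called, and without germ-free mouse 4 or 5 or humanized mouse 1, 6. Slc16a9, Slc16a10, Slco2a1, Slc23a2 and Slc22a5 were called in all 11. Slc16a9, Slc16a10, Slco2a1 and Slc23a2 were called by the quasi-likelihood test at FDR from 8.82e-06 to 0.00392, and Slc22a5 at 0.00549.

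The labels give no pairing of mice by replicate number. The correlation of same-numbered mice was −0.133 to 0.0910 over 5 pairs, and 2 of 5 correlated best with their own number. So few pairs cannot settle whether same-numbered mice shared a batch. The quasi-likelihood test with the replicate number as a block, on mice 1 to 5, called 4 members, 3 higher and 1 lower, and without the block, an alternative chosen after seeing the data, 5, 4 higher and 1 lower. Over all genes these counts were 1002 and 2078. Slc22a5 was called without the block and not with it. Among values of uncalled members the sign changed 51 times over the alternatives. DESeq2 gave no adjusted p for Slco4c1. Slc28a3, Slc22a29 and Slc22a13 rest on few reads. The causes of these changes were not tested.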
